A study of Mus musculus with 4 samples.

Results

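Spots of mouse liver sections were set apart by how much of their RNA came from Cidea, Cidec and Plin4, 3 genes of the lipid droplet. The rule took the 2 MASH sections and every spot with at least 500 UMIs (unique molecular identifiers, each standing for 1 captured RNA molecule). The share of a spot was the summed UMIs of Cidea, Cidec and Plin4 over all its UMIs. Spots were ranked by that share within each of 3 equal zones of the section, cut by the log2 ratio of Cyp2f2, a gene of the portal side of the lobule, to Cyp2e1, a gene of its central side. The top 15% of each zone are called rich spots below and the bottom 50% poor spots. There were 648 rich spots (369 in MASH-1 and 279 in MASH-2) of 4329 kept MASH spots and of 8246 kept spots in all 4 sections, set against 2164 poor spots (1234 and 930).

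The sections came from fresh-frozen, OCT-embedded mouse liver and were profiled with 10x Visium, which captures RNA on a slide in spots that can hold several cells each. The MASH mice were on the diet labelled WD for 16 weeks and the MAFL mice for 8 weeks, so model and diet time cannot be told apart, and age, sex and strain are not given in the sources used here. The kept spots held 63808230 UMIs in MASH-1 and 44581221 in MASH-2, against 32249289 in MAFL-1 and 38126800 in MAFL-2, with section medians of 15430.5 to 25291 UMIs per spot. The labels do not name the animal behind each section. The p-values below thus weigh a difference between rich and poor spots only against its own spread between sections and between zones of a section. That spread may be technical. MASH-1 and MASH-2 shared 1594 spot barcodes, which on a Visium slide name positions and not cells. Alb, the main plasma protein of hepatocytes, stood between 43153 and 57282.6 CPM (UMIs per 1000000) in the rich and poor sums of both MASH sections.

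Neutral fat is stored in the cell in droplets that bud from the endoplasmic reticulum and carry a coat of proteins. Cidea and Cidec sit where droplets touch and pass lipid from the smaller to the larger droplet, and Plin4 belongs to the perilipins, the coat proteins that shield the stored fat. In lean liver Plin2 is the main perilipin, while Cidea and Cidec are best known from fat tissue and appear in hepatocytes that store much fat.

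Promoter windows of RefSeq genes (250 bases before to 50 after the start, build GRCm38.p6) are printed for 2 of the ranking genes and for Plin2 and Fitm1, the droplet genes outside the ranking whose difference held under every zone and depth setting described below. Capitals mark the nuclear receptor half-site AGGTCA, searched on both strands (TGACCT on the other). Plin2 had 1 half-site, on the minus strand of the window, and the other windows printed had none. The half-site was present in 5340 of 32851 windows (16.3%), and the direct repeat AGGTCANAGGTCA in 13 (0.0396%) and in none of those printed. A match is a description of letters and not a site of binding. The Cidec window (its first of 2) is chr6:113435711-113436010 on the minus strand, that of Plin4 chr17:56109733-56110032 on the minus strand, that of Plin2 chr4:86670010-86670309 on the minus strand and that of Fitm1 chr14:55575424-55575723 on the plus strand.
Cidec: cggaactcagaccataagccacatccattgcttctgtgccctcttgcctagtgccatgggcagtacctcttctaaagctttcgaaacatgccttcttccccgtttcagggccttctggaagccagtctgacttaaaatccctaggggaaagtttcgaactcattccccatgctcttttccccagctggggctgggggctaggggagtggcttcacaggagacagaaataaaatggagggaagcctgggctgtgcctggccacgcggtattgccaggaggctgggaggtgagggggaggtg
Plin4: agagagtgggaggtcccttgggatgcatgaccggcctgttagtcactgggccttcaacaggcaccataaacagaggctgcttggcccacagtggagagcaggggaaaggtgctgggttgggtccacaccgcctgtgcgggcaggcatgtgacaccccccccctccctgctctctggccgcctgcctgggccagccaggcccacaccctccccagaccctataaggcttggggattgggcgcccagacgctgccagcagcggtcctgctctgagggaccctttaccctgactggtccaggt
Plin2: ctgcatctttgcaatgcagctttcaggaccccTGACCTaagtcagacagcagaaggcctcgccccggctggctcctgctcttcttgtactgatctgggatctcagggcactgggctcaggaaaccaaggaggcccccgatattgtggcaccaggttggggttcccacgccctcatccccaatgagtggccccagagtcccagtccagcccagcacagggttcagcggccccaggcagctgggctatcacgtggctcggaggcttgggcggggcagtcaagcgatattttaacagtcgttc
Fitm1: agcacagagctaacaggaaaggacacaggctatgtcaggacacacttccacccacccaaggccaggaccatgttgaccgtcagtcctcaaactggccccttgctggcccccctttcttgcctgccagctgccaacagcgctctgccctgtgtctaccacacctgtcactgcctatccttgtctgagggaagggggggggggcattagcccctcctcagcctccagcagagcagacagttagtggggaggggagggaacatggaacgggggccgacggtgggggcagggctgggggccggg

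The rich spots were selected on the measured UMIs of Cidea, Cidec and Plin4, which are therefore given as a description. Cidea stood at 114.3 and 31.6 CPM in rich spots of MASH-1 and MASH-2, against 26.0 and 5.82 CPM in poor spots (TMM-scaled by edgeR over the summed spots). Cidec stood at 150.2 and 183.7 CPM in rich spots, against 43.0 and 36.5 CPM in poor spots. Plin4 stood at 58.2 and 49.1 CPM in rich spots, against 18.8 and 11.2 CPM in poor spots. The sections were alike in Cidec and Plin4 but not in Cidea, which was higher in MASH-1 in both classes, so rich spots of MASH-2 rest mainly on Cidec. The mean log2 ratios of rich over poor spots were 2.29 for Cidea, 2.07 for Cidec and 1.88 for Plin4 over the 2 sections.

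**Figure D1:**
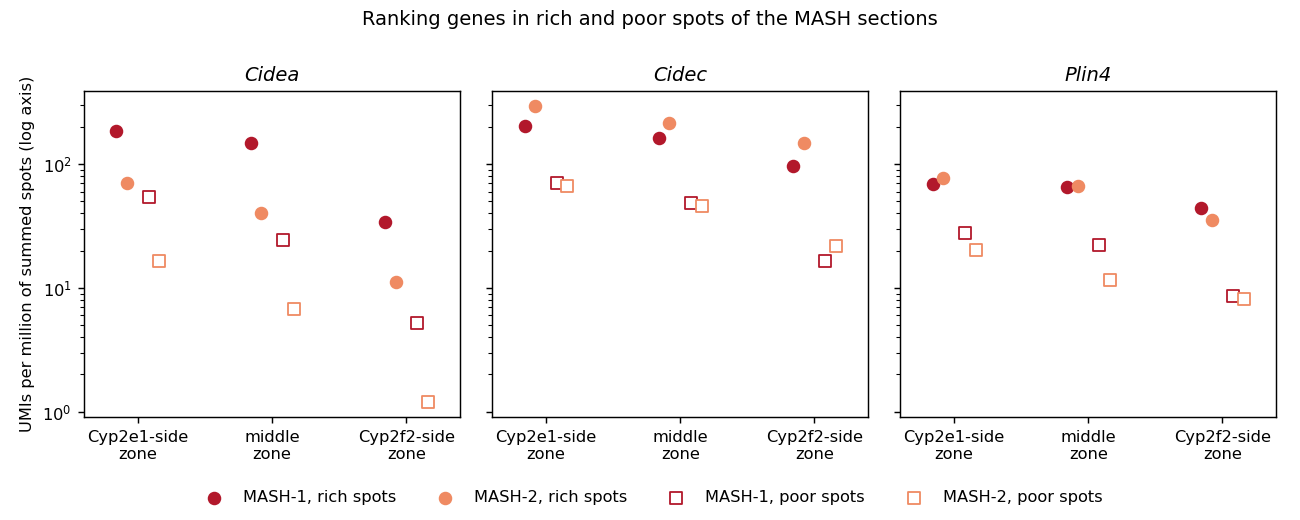
CPM, UMIs per 1000000, of summed spots (log axis) of Cidea, Cidec and Plin4 in rich spots (filled circles) and poor spots (open squares) of MASH-1 and MASH-2, by zone of the Cyp2f2 to Cyp2e1 ratio. All 3 genes were lower towards the Cyp2f2 side in both classes, and Cidea in rich spots of the Cyp2f2-side zone (33.9 and 11.2) lay below Cidea in poor spots of the Cyp2e1-side zone (54.3 and 16.4). In the same comparison Cidec and Plin4 were higher in the rich spots of both sections.

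The plot of the ranking genes by zone uses CPM without TMM scaling. Cidea in MASH-1 stood at 184.4, 148.4 and 33.9 CPM in rich spots of the Cyp2e1-side, middle and Cyp2f2-side zone, against 54.3, 24.4 and 5.25 CPM in poor spots. In MASH-2 it stood at 69.7, 40.5 and 11.2 CPM in rich spots, against 16.4, 6.81 and 1.19 CPM in poor spots. A rich spot is rich for its zone, and rich spots of the Cyp2f2 side held less Cidea than poor spots of the Cyp2e1 side. The other ranking genes went the other way. Cidec stood at 97.1 and 147.3 CPM in those rich spots of MASH-1 and MASH-2, against 70.7 and 66.1 CPM in those poor spots. Plin4 stood at 44.5 and 35.7 CPM, against 27.9 and 20.1 CPM. The pooled share was 1.75 and 1.94 per 10000 UMIs, against 1.53 and 1.03. The lowest share among rich spots and the highest just outside were 3.76 and 3.75 per 10000 UMIs in the Cyp2e1-side zone of MASH-1, and 1.32 and 1.31 in its Cyp2f2-side zone. The same pairs were 3.33 and 3.32, and 1.41 and 1.38, in MASH-2.

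The shares rest on few molecules. The 3 genes had 9747 UMIs in MASH-1 and 5445 in MASH-2, and 193 spots (7.82%) and 228 spots (12.2%) held none. Cidea helped to rank the spots, so a gap between the classes follows from the rule. The intervals below cover counting error within a section only and are no test. When each spot was thinned to 5000 UMIs, Cidea had a UMI in 44.4% of rich spots of MASH-1 (95% Wilson interval 39.3 to 49.6%), against 12.9% of poor spots (11.1 to 14.9%). In MASH-2 it had one in 17.6% of rich spots (13.5 to 22.5%), against 4.37% of poor spots (3.22 to 5.89%). Unthinned, these shares were 86.0 and 44.4% of rich spots, against 44.7 and 13.8% of poor spots; 13 rich and 26 poor spots of MASH-1 and 14 poor spots of MASH-2 were too shallow to thin. In MAFL, where Cidea was nearly absent, the thinned share over all spots was 0.250% (0.107 to 0.584%) and 0.377% (0.183 to 0.775%).

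In these sparse counts the 3 genes hardly moved together from spot to spot. After thinning, Cidea had a UMI in 24.1 and 8.72% of all spots of MASH-1 and MASH-2. Plin4 had one in 14.4 and 14.0%. Counting noise at this level holds such correlations near 0, so they cannot tell whether the genes vary together. Over thinned spots, which share the section and its zonation, the Spearman correlation of Cidea with Cidec was 0.09 in MASH-1 (2424 spots) and 0.06 in MASH-2 (1846 spots), and the correlations with Plin4 lay between 0.02 and 0.03. When Cidea alone ranked the spots, Cidec was 1.22 times higher in the top 15% than in the bottom 50% of MASH-1 and 1.09 times higher in MASH-2, and Plin4 1.05 and 1.13 times. When Cidec alone ranked them, Cidea was 1.47 and 1.53 times higher and Plin4 1.12 and 1.23 times. When Plin4 alone ranked them, Cidea was 1.06 and 1.28 times higher and Cidec 1.10 and 1.17 times. In MASH-1, 189 of the 369 rich spots (51.2%) were also in the top 15% by Cidea alone, 209 (56.6%) by Cidec alone and 147 (39.8%) by Plin4 alone. In MASH-2, 101 of the 279 rich spots (36.2%) were in the top 15% by Cidea alone, 193 (69.2%) by Cidec alone and 113 (40.5%) by Plin4 alone.

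Depth and place differed between the classes. Rich spots had a median of 21403 UMIs in MASH-1 and 16898 in MASH-2, against 26568 and 20191 UMIs in poor spots. Although spots were ranked within 3 zones, the median log2 ratio of Cyp2f2 to Cyp2e1 was -3.91 and -2.67 in rich spots, against -3.43 and -2.42 in poor spots. Cyp2e1, which also served the rule, stood at 7502 and 5222 CPM in rich spots, against 6470 and 4754 CPM in poor spots, and Cyp2f2 at 762 and 1110 CPM in rich spots, against 870 and 1437 CPM in poor spots. Rich spots thus lay somewhat further to the Cyp2e1 side within their zone and were shallower in both sections. Finer rankings, within 10 zones of the ratio and within bins of total UMIs, are given beside the results below.

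For the test, counts were summed by section, zone and class into 12 sums and compared with edgeR's quasi-likelihood test with section and zone as blocks, leaving out Cidea, Cidec, Plin4, Cyp2f2 and Cyp2e1. Of 10238 genes tested, 134 (1.31%) differed between rich and poor spots at a Benjamini-Hochberg adjusted p of 0.05. Of these, 39 (0.381%) were higher and 95 (0.928%) lower in rich spots. All 134 had the same direction in MASH-1 as in MASH-2, but the sizes differed: the median log2 ratio of the lower genes came to -0.15 for MASH-1 and to -0.37 for MASH-2, and that of the higher genes 0.25 and 0.33. In all 6 pairs of section and zone, 133 tested genes (1.3%) were higher and 427 (4.17%) lower in rich spots. Random signs would also put some genes in each group, so these counts describe direction only and are no test. Scaling by library totals alone, which shifted the median of all genes by 0.04 on the log2 scale, called 65 genes higher and 54 lower. The 3 zones of a section share that section, and with their counts summed, 4 sums in all, 9 genes were higher and 15 lower.

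Among genes of the droplet itself, most did not pass the test, but the share called higher was above that over all genes. Over all tested genes 0.381% were higher and 0.928% lower, the shares to set beside every list count below. Of a list of 20 genes of droplet coat, fusion and assembly, 19 were tested, 3 were higher in rich spots (Fitm1, Plin2 and Fitm2) and none lower, with a median log2 fold change of 0.04, against 0.01 over all tested genes. Fitm1, a membrane protein of the endoplasmic reticulum that helps droplets form, stood at 217 and 104 CPM in rich spots of MASH-1 and MASH-2, against 171 and 82.5 CPM in poor spots. Rich spots were higher in each section, while the sections differed by more than the classes (log2 fold change 0.33 ± 0.05 SE, edgeR adjusted p = 2.94e-05). Plin2, the perilipin found on droplets of most cells, stood at 413 and 568 CPM in rich spots, against 396 and 455 CPM in poor spots. Its log2 ratio came to 0.06 for MASH-1 and to 0.32 for MASH-2, so MASH-2 carries most of the difference (0.21 ± 0.04 SE, adjusted p = 0.00324). Fitm2, the second member of the Fitm1 family, stood at 104 and 93.4 CPM in rich spots, against 89.8 and 83.4 CPM in poor spots (0.20 ± 0.05 SE, adjusted p = 0.0341), and its call was lost when spots were ranked within 10 zones.

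Other droplet proteins did not pass the test. Plin5, the perilipin that ties droplets to mitochondria, stood at 58.6 and 77.1 CPM in rich spots, against 60.9 and 79.9 CPM in poor spots (log2 fold change -0.04 ± 0.06 SE, adjusted p = 0.940). Cideb, the family member of healthy hepatocytes that also serves lipoprotein loading, stood at 133.7 and 177 CPM in rich spots, against 135.8 and 168 CPM in poor spots (0.04 ± 0.05 SE, adjusted p = 0.905). G0s2, an inhibitor of the lipase that opens stored fat, had a log2 fold change of 0.15 ± 0.04 SE (adjusted p = 0.0920). Plin1, the perilipin of fat cells, had 0 UMIs in rich and in poor spots of both sections.

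**Figure D2:**
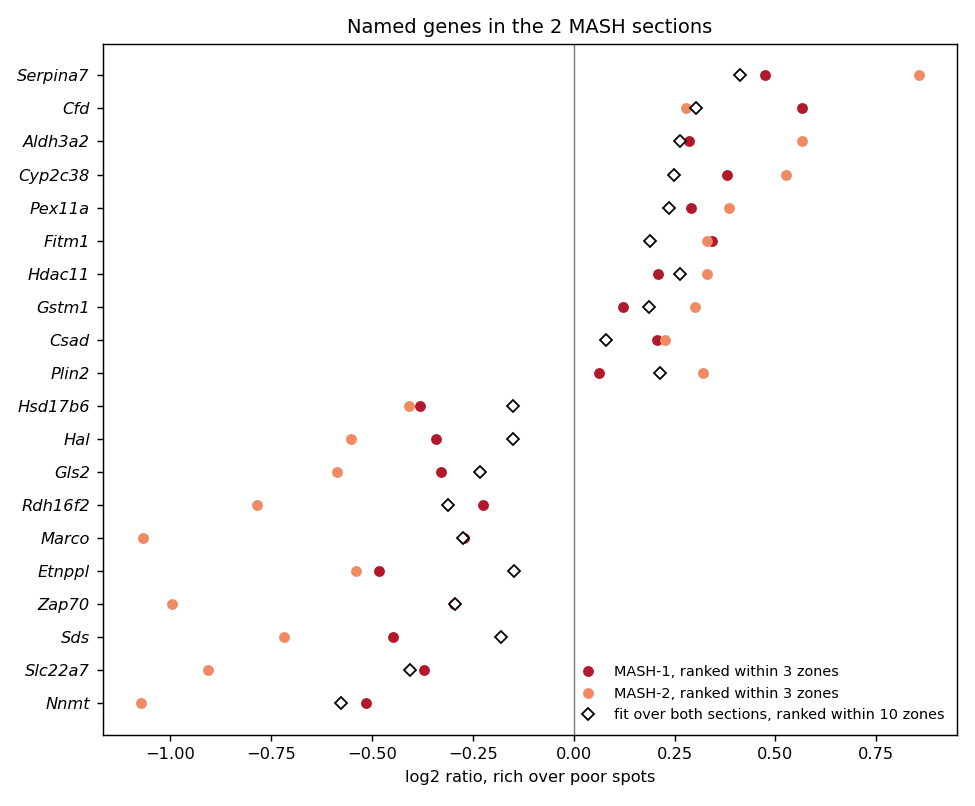
Log2 ratio of rich over poor spots (x axis) of the 10 highest and 10 lowest genes named by rule, in MASH-1 (dark circles) and MASH-2 (light circles) with spots ranked within 3 zones, and from the fit over both sections with spots ranked within 10 zones (open diamonds; the diamond covers the MASH-1 circle of Zap70). Every circle of a gene lies on the same side of 0, which follows from the rule. Most lower genes lie further out in MASH-2, and Nnmt (-0.76 in the fit within 3 zones) and Serpina7 (0.60) head the lower and the higher genes.

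The metabolic lists around the droplet held 1 call each or none. An unadjusted p under 0.05 in edgeR was reached by 7 of 19 PPAR gamma targets, 5 of 24 fat synthesis genes and 6 of 17 uptake genes. Over all tested genes it was reached by 893 of 10238. Of 19 tested PPAR gamma targets of steatotic liver, 1 was higher (Cfd) and none lower. In this list 16 had a positive log2 fold change, with a median of 0.10. Pparg itself, the receptor that drives fat storage, stood at 6.10 and 11.2 CPM in rich spots, against 5.80 and 7.94 CPM in poor spots (0.30 ± 0.16 SE, adjusted p = 0.646). Of 24 genes of fat synthesis from sugar, 1 was lower (Acly, which makes cytosolic acetyl-CoA, -0.26 ± 0.07 SE, adjusted p = 0.0175) and none higher, and Thrsp, a lipogenic regulator named in the title of the series, stood at 371 and 483 CPM in rich spots, against 339 and 451 CPM in poor spots (0.13 ± 0.04 SE, adjusted p = 0.187). Of 17 genes of fatty acid uptake, 1 was lower, Slc27a5, which activates bile acids and fatty acids (-0.15 ± 0.04 SE, adjusted p = 0.0328), while the carrier Cd36 stood at 194 and 168 CPM in rich spots, against 188 and 150.5 CPM in poor spots (adjusted p = 0.508). Triglyceride synthesis (15 tested), lipolysis (18), fatty acid oxidation (27), cholesterol synthesis (22) and VLDL assembly (18) had no call in edgeR, with 1, 5, 6, 2 and 6 members at an unadjusted p under 0.05, against 893 of all 10238 tested genes. Their medians lay between -0.04 and 0.04, and DESeq2 called 1 lipolysis gene lower.

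The genes highest in rich spots were of several kinds. Serpina7, the thyroxine-binding globulin of plasma, stood at 70.0 and 56.1 CPM in rich spots of MASH-1 and MASH-2, against 50.3 and 31.0 CPM in poor spots (log2 fold change 0.60 ± 0.07 SE, edgeR adjusted p = 4.36e-09). Both rich values lay above both poor values. Pex11a, a membrane protein of dividing peroxisomes, stood at 113.5 and 135.8 CPM in rich spots, against 92.8 and 104.0 CPM in poor spots (0.34 ± 0.05 SE, adjusted p = 2.90e-06), again without overlap. Aldh3a2, which oxidises fatty aldehydes, stood at 308 and 346 CPM in rich spots, against 252 and 234 CPM in poor spots (0.43 ± 0.07 SE, adjusted p = 0.00375), also without overlap. Cfd, complement factor D, known as adipsin in fat cells, stood at 513 and 26.6 CPM in rich spots, against 347 and 22.0 CPM in poor spots (0.52 ± 0.08 SE, adjusted p = 0.00217). Its level differed far more between the 2 sections than between the classes. The rule also named Cyp2c38 (0.40), Hdac11 (0.26), Gstm1 (0.21), which conjugates glutathione, and Csad (0.21), an enzyme of taurine synthesis.

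Most genes named as lower in rich spots were enzymes and transporters of hepatocytes. Nnmt, which methylates nicotinamide, stood at 34.8 and 50.5 CPM in rich spots, against 49.7 and 106.2 CPM in poor spots (log2 fold change -0.76 ± 0.07 SE, adjusted p = 5.97e-11). It was lower in each of the 6 pairs, as the rule on named genes required, with log2 ratios of -0.51 in MASH-1 and -1.07 in MASH-2. Slc22a7, an organic anion transporter, stood at 24.4 and 24.004 CPM in rich spots, against 31.6 and 45.0 CPM in poor spots (-0.57 ± 0.09 SE, adjusted p = 3.28e-05). Sds, which breaks down serine on the portal side of the lobule, stood at 174.5 and 172 CPM in rich spots, against 238 and 283 CPM in poor spots (-0.50 ± 0.05 SE, adjusted p = 4.00e-12). For Sds and Slc22a7 both rich values lay below both poor values. The rule also named Zap70 (-0.49), a kinase of the T cell receptor, Etnppl (-0.45), which splits phosphoethanolamine, Marco (-0.44), Rdh16f2 (-0.42) of the retinol dehydrogenases, the liver glutaminase Gls2 (-0.40), Hal (-0.39), which opens histidine breakdown, and Hsd17b6 (-0.37), a steroid oxidoreductase.

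Lists of lobule zonation and of hepatocyte functions were set beside these genes. Over all tested genes 0.928% were lower and 0.381% higher in rich spots. Of 20 tested periportal hepatocyte genes, not counting Cyp2f2, 15 were lower in rich spots and none higher, with a median of -0.24 and 16 at an unadjusted p under 0.05. Of 22 tested pericentral genes 4 were higher (Cyp2c38, Aldh3a2, Lect2 and Cyp3a11) and none lower, with a median of 0.18. Of 24 genes of amino acid breakdown and the urea cycle 13 were lower, Sds, Gls2, Hal and Ass1 with the smallest p (median -0.19). Of 12 hepatocyte markers 6 were lower (median -0.13), among them Alb, which stood at 47289.7 and 43153 CPM in rich spots, against 55740.2 and 57282.6 CPM in poor spots. Of 20 acute phase genes 7 were lower (median -0.05), Itih4 and the 3 fibrinogen chains Fgg, Fga and Fgb first. Of 22 P450 and conjugation enzymes 4 were higher (Gstm1, Cyp2c38, Cyp3a11 and Gstm3, median 0.09). Some lists share members: Cyp2c38 and Cyp3a11 are in the pericentral and the P450 list, and Fga is in the hepatocyte and the acute phase list. Their counts are thus not separate results. The shift of the Cyp2f2 to Cyp2e1 ratio within 3 zones goes the same way as these lists, and its part in them was not tested.

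Ranking the spots more finely removed part of this pattern. Within 10 zones of the Cyp2f2 to Cyp2e1 ratio, 86 genes were called, and 68 of the 134 kept their call. Of the genes named by rule, Cyp2c38, Csad, Zap70, Etnppl, Marco, Rdh16f2, Hal and Hsd17b6 lost it there. With 10 zones of a ratio of 6 periportal over 6 pericentral genes and bins of total UMIs inside them, an alternative chosen after seeing the data, 91 genes were called and 57 of the 134 kept their call. In that ranking 3 of 15 tested periportal genes were lower (median -0.11) and 1 of 16 pericentral genes was higher (median -0.06). The genes of the ratio itself, among them Sds, Gls2 and Hal, were left out of that fit. Its lists thus hold fewer members than those within 3 zones, and the part of this in the smaller counts and medians was not tested. The amino acid list had 2 of 20 lower (median -0.11), and the hepatocyte markers 4 of 12 (median -0.07). The droplet list had 2 of 19 higher within 10 zones (median 0.01) and 3 of 18 higher in the finest ranking (median 0.05). Fitm1 and Plin2 passed in both, and Fitm2 in neither (adjusted p of 0.135 and 0.273).

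**Figure D3:**
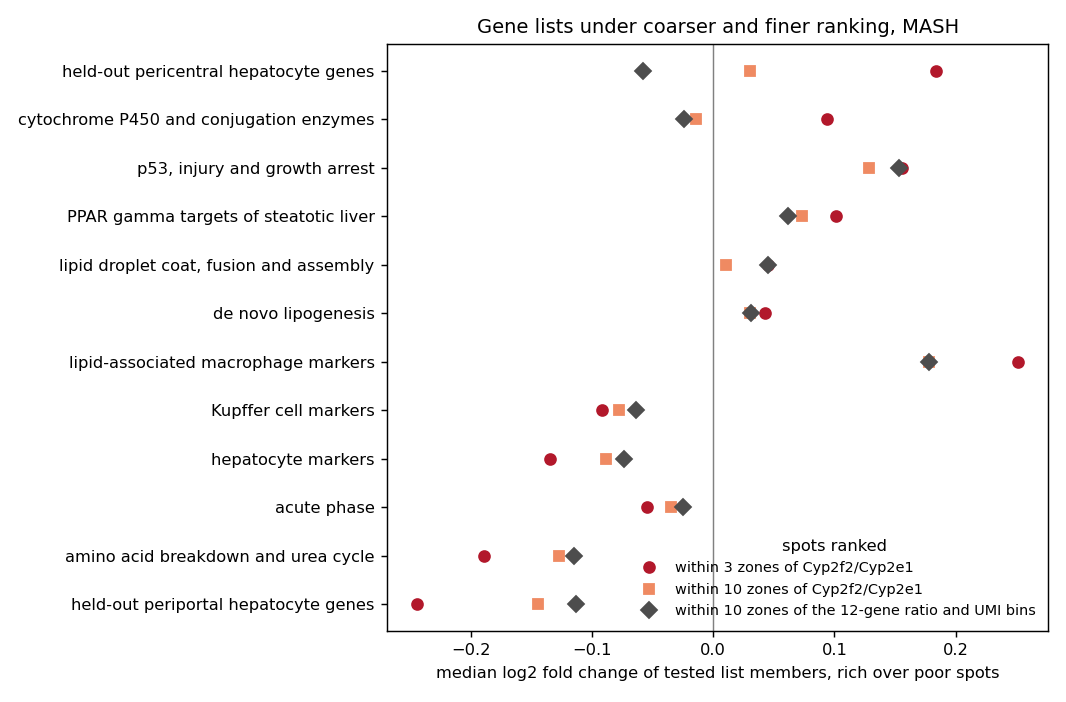
Median log2 fold change (x axis) of the tested members of 12 gene lists, rich over poor spots of the MASH sections, with spots ranked within 3 zones (circles), 10 zones (squares) and 10 zones of the 12-gene ratio with UMI bins (diamonds, which cover the circle of the droplet list and the square of the macrophage list). The pericentral median of 0.18 within 3 zones came to 0.03 within 10 zones and -0.06 in the finest ranking. The periportal median of -0.24 came to -0.14 and -0.11, and the lipid-associated macrophage median of 0.25 came to 0.18 in both. The finest ranking left out the genes of the 12-gene ratio, so its periportal and pericentral medians cover fewer members.

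In all 5 settings that changed the zone classes or ranked by depth, 2 of them chosen after seeing the data, 13 higher and 21 lower genes kept their call. The higher ones include Serpina7, Pex11a, Fitm1, Plin2 and Gstm1 of those named by rule. They also include Anxa2 and S100a10, the 2 parts of 1 membrane-binding complex, Gpx4, which reduces lipid peroxides, and Haus8 of the mitotic spindle, which were named after their values were seen. Serpina7 had a log2 fold change of 0.37 in the finest ranking (adjusted p = 3.06e-04) and Plin2 of 0.23. Among the lower ones were Nnmt at -0.53, Slc22a7 at -0.44, the cystine transporter subunit Slc3a1 at -0.45, the glucocorticoid-activating enzyme Hsd11b1 at -0.18 and Alb at -0.13 in the finest ranking. Cyp2c38, Csad, Zap70, Etnppl, Hsd17b6 and Marco lost their call there, and Sds, Gls2 and Hal took part in the 12-gene ratio and were not tested. For Nnmt, Serpina7, Slc22a7, Slc3a1, Pex11a, Fitm1, Hsd11b1 and C8b the call also held with counts summed over the zones.

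Along the whole ranking, levels moved in steps. In 5 rank bins of the share, low to high, Serpina7 stood at 44.5, 51.0, 52.5, 52.9 and 67.3 CPM in MASH-1 and at 27.5, 32.2, 41.6, 47.7 and 60.5 CPM in MASH-2 (CPM without TMM scaling). Fitm1 stood at 155.8, 169.9, 177.5, 188.6 and 212.7 CPM in MASH-1 and at 83.0, 86.4, 96.3, 107.5 and 113.6 CPM in MASH-2. Both were higher in each successive rank bin of both sections. Nnmt in MASH-2 was lower in each successive rank bin, at 125.6, 103.9, 98.9, 82.2 and 62.4 CPM, while in MASH-1 it stood between 46.4 and 50.02 CPM in the lower 4 rank bins and at 37.6 CPM in the top one. Plin2 had a clear slope in MASH-2 only, with 412.3 against 382.4 CPM in the top and lowest rank bin of MASH-1, and 622.1 against 461.8 CPM in those of MASH-2.

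**Figure D4:**
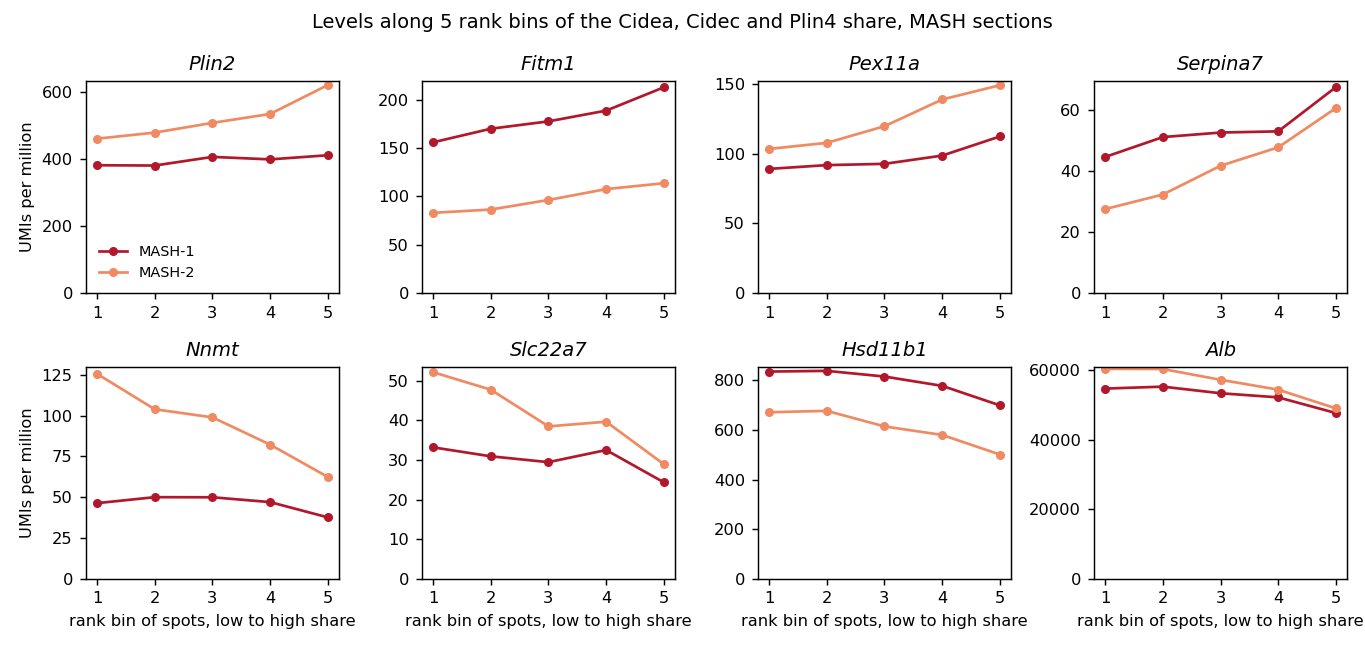
CPM, UMIs per 1000000, (y axis, from 0) of 8 genes in rank bins of the MASH spots from low to high share of Cidea, Cidec and Plin4 (x axis), for MASH-1 (dark line) and MASH-2 (light line). Fitm1, Pex11a and Serpina7 were higher towards the top rank bin in both sections, Alb and Hsd11b1 were lowest in it, and the slopes of Plin2 and Nnmt were steeper in MASH-2.

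Markers of other cells were set beside these genes, since a spot can hold several cells, and fewer cells of a type cannot be told apart from less RNA per cell. Of 8 tested fat cell markers 1 was higher in rich spots, Cfd, and none lower. Of the 8, 6 had a positive log2 fold change and 3 an unadjusted p under 0.05 (Cfd, Lpl and Fabp4), with a median of 0.17, against 0.01 over all tested genes. Without the filter on low counts 3 of 14 were higher (median 0.26). Lep, Plin1 and Slc36a2 had 0 UMIs in rich and poor spots of both sections, and Adipoq, the adiponectin gene, had none in rich spots and 1 UMI in the poor spots of each section. Leaving out the spots with an Adipoq UMI, 4 in MASH-1 and 1 in MASH-2 and none of them rich, left the log2 fold change of Cfd at 0.51 (adjusted p = 0.00168). So few spots could hardly move it, and no conclusion is drawn from this setting. The summed level of the fat cell markers was 3555 and 1865 CPM in rich spots, against 3276 and 1971 CPM in poor spots, higher in rich spots of MASH-1 and lower in those of MASH-2. Such a sum is ruled by its most abundant members. Adipoq, Lep, Plin1 and Slc36a2 add almost nothing to it, so it is no measure of fat cells. The part of fat cell RNA in the results was not tested.

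Macrophage genes did not move as 1 group. Of 17 Kupffer cell markers 3 were lower in rich spots (Marco, Clec4f and Cd163) and none higher, with a median of -0.09 and a summed level of 1335 and 1258 CPM in rich spots, against 1408 and 1390 CPM in poor spots. Clec4f, a lectin of the resident macrophages of the liver, stood at 128.6 and 112.1 CPM in rich spots, against 146.8 and 151.8 CPM in poor spots (log2 fold change -0.30 ± 0.06 SE, adjusted p = 0.00176), and Marco, a scavenger receptor, at 50.9 and 10.7 CPM, against 61.5 and 22.4 CPM. All 3 calls were lost in the finest ranking. All 12 tested markers of lipid-associated macrophages had a positive log2 fold change (median 0.25), but none passed in edgeR or DESeq2, with 5 at an unadjusted p under 0.05. Lpl, which frees fatty acids from lipoproteins, stood at 45.3 and 61.2 CPM in rich spots, against 42.9 and 44.8 CPM in poor spots (0.27 ± 0.08 SE, adjusted p = 0.0655), Trem2, a lipid receptor, at 10.99 and 22.8 CPM, against 10.8 and 17.3 CPM (adjusted p = 0.502), and Gpnmb at 12.5 and 41.97 CPM, against 12.5 and 36.2 CPM (adjusted p = 0.684). The summed level of this list, ruled by its most abundant members, was 277 and 795 CPM in rich spots, against 309 and 587 CPM in poor spots. Spp1 is both in this list and among the bile duct markers. The summed duct markers also were lower in rich spots of MASH-1 and higher in those of MASH-2. They stood at 90.6 and 369.7 CPM, against 122.3 and 294.9 CPM in poor spots. The part of Spp1 in these sums was not tested. Cd74, the receptor of the title, stood at 254 and 400.5 CPM in rich spots, against 242 and 372 CPM in poor spots (adjusted p = 0.443), and its ligand Mif at 267 and 271 CPM, against 266 and 245 CPM (adjusted p = 0.533).

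Of the remaining lists, those of injury and of matrix held small numbers of calls. Of 18 genes of p53, injury and growth arrest 2 were higher (Anxa2, 0.46 ± 0.10 SE, and the keratin Krt8, 0.20 ± 0.05 SE) and 15 had a positive fold change (median 0.16). Of 16 stellate cell markers 1 was higher, Cygb, a globin of stellate cells (0.49 ± 0.12 SE, adjusted p = 0.00829), and of 19 matrix genes 1, Sparc (0.23 ± 0.06 SE, adjusted p = 0.0463), whose log2 ratio came to 0.05 for MASH-1 and to 0.36 for MASH-2. Both calls were lost within 10 zones. Of 20 interferon-inducible genes 1 was higher (Ifi27l2b) and 2 lower (Isg15 and Ifit1), and of 4 tested B and plasma cell markers 1 was lower, Jchain, the joining chain of secreted antibodies (-1.09 ± 0.18 SE, adjusted p = 3.28e-05), on 2.56 and 6.19 CPM in rich spots, against 5.27 and 13.8 CPM in poor spots. In all, 23 of the 44 lists held no call in edgeR. They had 311 distinct tested genes, of which 48 had an unadjusted p under 0.05, against 893 of all 10238 tested genes, and DESeq2 called 2.

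Which of the ranking genes chose the spots mattered for the calls. Ranked by Cidec alone, 132 genes were called and 87 of the 134 kept their call. Ranked by Cidea alone, 18 were called (13 higher and 5 lower) and 9 of the 134 kept their call, and ranked by Plin4 alone, 6 were called (1 higher and 5 lower) and 5 kept it. Serpina7 passed when Cidea ranked the spots (adjusted p = 3.82e-04) and did not pass with Cidec (adjusted p = 0.106), while Pex11a passed with Cidec (adjusted p = 2.88e-05) and did not with Cidea (adjusted p = 0.0691). Nnmt passed with neither alone (adjusted p of 0.972 with Cidea and 0.168 with Cidec).

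The same rule was applied to the 2 MAFL sections, on spots it was not written for. There the 3 genes had 1121 and 939 UMIs in all, and 59.1% and 60.9% of the spots held none, so that the poor spots were all at 0. Cidea, at 49.8 and 13.7 CPM over the MASH sections, stood at 0.620 and 0.420 CPM over the MAFL sections, with 8 and 9 UMIs in the 588 MAFL rich spots (306 and 282). Of 9526 genes tested between rich and poor MAFL spots, 1 (0.0105%) differed in edgeR, Igha, an antibody chain, lower in rich spots (-1.14 ± 0.23 SE, adjusted p = 0.0156), with 473 genes at an unadjusted p under 0.05 and no call by DESeq2. Fitm1, Plin2, Pex11a and Serpina7 had log2 fold changes of 0.09, 0.05, 0.04 and 0.17 in MAFL (adjusted p of 0.962 or above). The classes there rest on presence or absence of 1 or a few molecules, which sets a limit on any difference.

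The difference between the models was tested as an interaction over all 4 sections. The rich-over-poor ratio differed between MASH and MAFL for 19 of 10648 genes (0.178%), all lower in MASH. Nnmt stood at 34.8 and 50.5 CPM in rich and at 49.7 and 106.2 CPM in poor MASH spots, against 140.1 and 222.5 CPM in rich and 143.2 and 220.1 CPM in poor MAFL spots (log2 difference -0.80 ± 0.09 SE, adjusted p = 1.14e-09). Nnmt was lower in rich spots of each MASH section and near level between the classes of each MAFL section. Slc22a7 (-0.66 ± 0.13 SE), Aldh1b1 (-0.54 ± 0.09), Hsd17b6 (-0.47 ± 0.09) and Sds (-0.47 ± 0.06) followed by the rule on named genes. The others were Slc3a1, Hal, Got1, Hsd11b1, C8b, Upp2, Rida, Alb, Ass1, Itih4, Pck1, Fga, Serpina1a and Ahsg. Of 21 periportal genes 7 were among them. Within 10 zones of the Cyp2f2 to Cyp2e1 ratio 14 genes were called, and 7 of the 19 kept their call. Within bins of total UMIs 14 were called, and 11 of the 19 kept it. Within 10 zones of the 12-gene ratio 13 were called, and 8 of the 16 still tested kept it. No gene that was higher in MASH rich spots passed the test of the difference: Fitm1 differed by 0.25 ± 0.09 SE (adjusted p = 0.442), Plin2 by 0.16 ± 0.06 (adjusted p = 0.423) and Gstm1 by 0.18 ± 0.05 (adjusted p = 0.0717). The count rests on single sections, with 146 genes without MASH-1, 10 without MASH-2, 4 without MAFL-1 and 8 without MAFL-2.

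**Figure D5:**
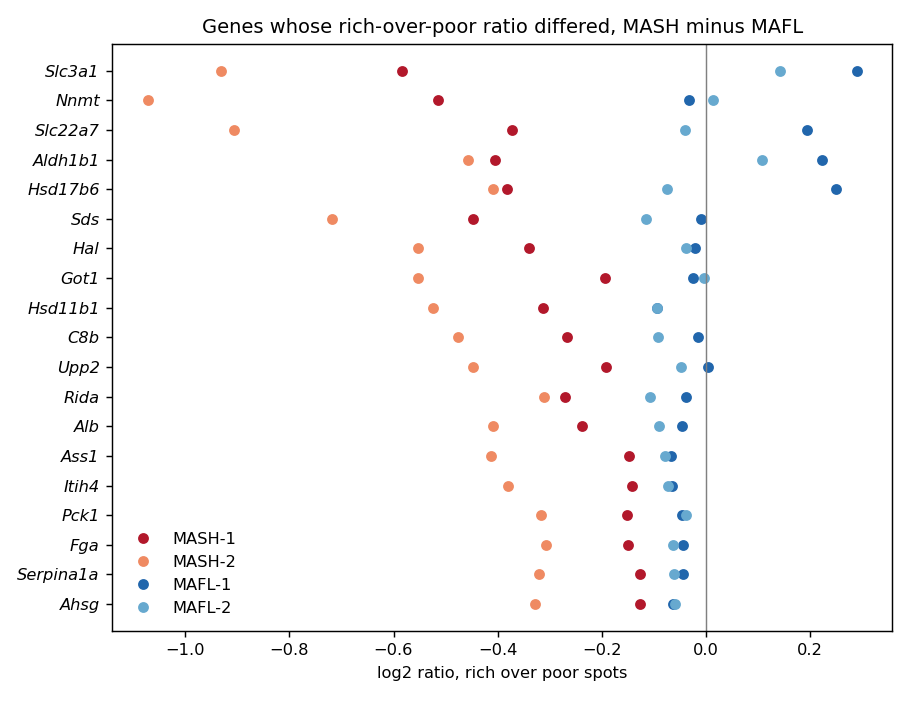
Log2 ratio of rich over poor spots (x axis) in each of the 4 sections for the 19 genes whose ratio differed between MASH (red and orange) and MAFL (blue). For every gene both MASH values lie below both MAFL values, and MASH-2 lies furthest to the left throughout.

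Along the lobule the rich-over-poor ratio differed between the Cyp2f2-side and the Cyp2e1-side zone of MASH for 3 of 11126 genes (0.027%), all with a higher ratio on the Cyp2f2 side. Cyp2c37, a P450 of the central side, had log2 ratios of 0.57 and 0.48 on the Cyp2f2 side of MASH-1 and MASH-2, against 0.11 and -0.60 on the Cyp2e1 side (log2 difference 0.73 ± 0.14 SE, adjusted p = 0.00534). Its neighbour in the same family, Cyp2c29, had 0.45 and 0.30, against 0.11 and -0.61 (0.61 ± 0.13 SE, adjusted p = 0.00787). The mitochondrial gene mt-Atp8, named after its values were seen, had 0.38 and 0.42, against -0.14 and -0.56 (0.83 ± 0.17 SE, adjusted p = 0.00693). The rule on named genes required the same order in each section for Cyp2c37 and Cyp2c29, and mt-Atp8 kept it as well. On simulated counts this fit made more false calls than its threshold allows and missed most of the changes put in, so these calls are less firm than those of the other fits. All 3 calls were lost within 10 zones of the ratio, within UMI bins and in DESeq2, which called 0 genes and had 26 at an unadjusted p under 0.05.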

How the data were processed

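Mouse liver sections were profiled with 10x Visium, 2 sections of MASH and 2 of MAFL as the labels group them. The deposited matrices hold counts, UMIs per gene and spot, which per the file headers come from Space Ranger 1.2.2 and per the submitters' processing notes use mm10. No other normalization was found in the values. Spot positions were not used here.

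Spots with at least 500 UMIs were kept (3 left out in MASH-1 and 3 in MAFL-1). Each section and zone was divided into rich, middle and poor spots by the rule given above, with ties broken by a fixed seed. Counts were summed by section, zone and class and tested with the quasi-likelihood fit of edgeR 4.0.16 (robust glmQLFit after TMM and filterByExpr, adjusted p of 0.05) in R 4.3.3, with DESeq2 1.42.0 as an alternative. Python 3.11.15 did the rest. Wilson intervals cover counting error only. A chi-square of the counts of the 2 sections of a group came to 116 per degree of freedom in MASH and 67.7 in MAFL, so no section repeats another. The fits were tested on simulated counts, where the share of false calls stayed under the threshold in every fit except that of the difference along the lobule. Each sum was drawn independently there, so no class difference was shared by the zones of a section. The simulation thus cannot show the share of false calls where zones do share one.

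The members, 44 gene lists, tests and alternatives were chosen with earlier results of these data known. Of 715 symbols in the lists 713 were found. Named genes passed the threshold, had a mean of at least 20 CPM and moved 1 way in all 6 pairs (or in every section): the 10 highest and 10 lowest in MASH and the 5 highest and 5 lowest elsewhere. Predicted, Mup, ribosomal, mitochondrial and haemoglobin genes, Xist, Tsix and Y-linked genes were left out of that rule. Droplet genes and genes of the series title were always named, and each list described gave up to 4 members of smallest p. Further genes named under the finer rankings, from single calls or among the 19 genes of the interaction were chosen after their values were seen.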

Additional observations from a re-analysis of the deposited data

Results flagged for a closer look

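A test of the difference between the models marked 5 named genes. Each had a lower rich-over-poor ratio in both MASH sections than in both MAFL sections, as the rule on named genes required. The log2 differences, MASH minus MAFL, were -0.80 for Nnmt, -0.66 for Slc22a7, -0.54 for Aldh1b1, -0.47 for Hsd17b6 and -0.47 for Sds. Poor spots of MAFL held no UMI of the ranking genes and those of MASH did, so the 2 contrasts are not of equal width, and the part of this in the differences was not tested.

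A test of the difference between the Cyp2f2-side and the Cyp2e1-side zone of MASH marked 3 genes. The log2 differences were 0.73 for Cyp2c37, 0.61 for Cyp2c29 and 0.83 for mt-Atp8. These calls come from the fit that made more false calls on simulated counts than its threshold allows.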

How the results depend on the processing

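The count in MASH (39 genes higher, 95 lower) came to 17 and 61 with DESeq2, 65 and 54 with library totals alone, 23 and 53 with section and zone as additive terms, 25 and 57 with 3 zones of the 12-gene ratio, 13 and 5 with Cidea alone, 1 and 5 with Plin4 alone, and 9 and 15 with sums over the zones. Lower genes came to 54 within 10 zones and to 54 within 10 zones of the 12-gene ratio with UMI bins. In MAFL the 1 call came to 0 with DESeq2 and within 10 zones, and to 2 without the filter and within UMI bins. The 19 genes of the difference between models came to 31 with DESeq2, 30 without the filter and 4 to 146 with 1 section left out. The 3 genes of the difference along the lobule came to 0 with DESeq2 and within UMI bins and to 1 within 10 zones and within 10 zones of the 12-gene ratio. Fewer sums or other spots enter some of these fits by construction; otherwise the cause was not tested. Marco reversed to a log2 fold change of 0.032 when Plin4 alone ranked the spots (adjusted p = 0.991). Among genes named for MASH, 429 results kept direction and side of the threshold, 77 lost the call and 3 gained it. Replicate numbers were not used to pair the samples. Deviations of same-numbered sections correlated at -0.00415 over 8307 genes. The MAFL ratios rest on few molecules of the ranking genes, so this correlation cannot tell whether the sections were paired. A replicate block gave 42 calls for the difference between models, against 19 without it.

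Limits: 2 sections per group, zones that share a section, and ranking genes at a few UMIs per spot.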

Other observations

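All 13 tested transcripts of the mitochondrial genome had a positive log2 difference between the Cyp2f2-side and the Cyp2e1-side zone of MASH (median 0.17, against 0.003 over all tested genes), but only mt-Atp8 passed. Over both sections together the same 13 genes had a median log2 fold change of 0.004 between rich and poor spots.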
